A study of Homo sapiens with 24 samples.

Results

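The effect of a pool of siRNAs against BOP1 on polyadenylated RNA was measured in A549, an established line of human lung adenocarcinoma cells. The cells had been exposed to interferon beta (IFN) for 8 h. The comparison used 6 of the 24 libraries of the series: 3 from cells given a pool of siRNAs against BOP1 (siBOP1) and 3 from cells given an siRNA against firefly luciferase (siFLuc), an insect gene that human cells lack. Both groups were transfected with siRNA for 48 h, and both then received IFN at 1000 units/mL. All 6 libraries therefore come from stimulated cells, and by the labels the groups differ in the siRNA given. Whether a change followed from the loss of BOP1 or from another effect of the pool was not tested. The remaining libraries came from mock-treated cells and from a 12 h time point. Values are in TPM, the share of each transcript in its library, corrected for transcript length and scaled to a fixed total. Genes were described where 3 or more of the 6 libraries reached 1 TPM, which left 14058 of the 60609 rows in the table. At the edge of that rule, 458 genes reached 1 TPM in exactly 3 libraries, with a median mean level of 1.06 TPM, and 612 genes reached it in 2, with a median of 0.865 TPM. Columns were numbered 1, 2 and 4 in each group.

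BOP1 is a subunit of the PeBoW complex, in which it binds PES1 and WDR12. The complex acts in the nucleolus, where it is needed to process ribosomal RNA and to mature the large ribosomal subunit. IFN signals through its receptor to JAK kinases and STAT transcription factors, which switch on interferon-stimulated genes whose products restrict viruses and raise antigen presentation. The series concerns how ribosome production bears on translation during that response, but these libraries measure RNA levels and not translation.

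The 6 libraries were alike in composition. Between 13844 and 14354 genes reached 1 TPM in a library, the 10 highest genes held 12.7% to 14.3% of all TPM, and mitochondrially encoded genes held 10.9% to 13.9%. The lowest mitochondrial share belonged to the siBOP1 library numbered 4. Pearson r of log2(TPM + 1) across genes lay between 0.978 and 0.988 within a group. Summed TPM of 5 epithelial markers ran from 5912 to 6661 with siBOP1 and from 6705 to 7835 with siFLuc, most of it the keratins KRT8, KRT18 and KRT7, while EPCAM stood at only 1.92 to 5.21 TPM. The sum of 12 markers of blood, endothelial and fibroblast cells was 9.73 to 20.0 TPM with siBOP1 and 9.04 to 15.5 TPM with siFLuc. CD3E was listed at 0 in all 6 libraries, and PTPRC in 5 of them. COL1A1, at 5.68 to 16.4 TPM, supplied most of that sum. TPM keeps no read depth, so no counting error can be given.

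BOP1 itself (ENSG00000261236.8, chromosome 8, 144262102 to 144291370, minus strand, GRCh38) was at 16.6, 16.0 and 17.1 TPM in the siBOP1 libraries numbered 1, 2 and 4, and at 56.0, 48.0 and 64.4 TPM in the siFLuc libraries. All siBOP1 values lay below all siFLuc values, and the siBOP1 mean was 29.6% of the control. On the log2 scale it changed by -1.69 (SE 0.18, limma adjusted p 1.27e-05). A two-sided exact permutation test gave p = 0.1, the smallest that 3 against 3 libraries allow. The partners of BOP1 did not pass the test: PES1 had a log2 fold change of -0.12 and WDR12 of -0.09, with overlapping groups in both.

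Of the 14058 genes, 213 were higher (1.52%) and 130 lower (0.925%) with siBOP1 at a limma adjusted p under 0.05, 343 in all (2.44%). The median change was 0.61 among the genes called higher and -0.61 among those called lower, on the log2(TPM + 1) scale that is used for all changes here and that understates changes of low genes. The median of all genes was -0.01. Changes of at least 1 on this scale were seen in 23 of the higher and 16 of the lower genes. The siBOP1 and siFLuc values did not overlap for any called gene, but this also held for 10.3% of all genes in the upward and 10.5% in the downward direction. The labels do not say that the 3 libraries of a group came from separate cultures, so the p-values measure the spread between these samples, which may be technical. Leaving out 1 library lowered the counts by more than 1.5 times for each of the 6 libraries, except that 179 genes were higher without siFLuc number 1: the higher genes numbered 113, 87 and 137 without siBOP1 numbers 1, 2 and 4, and 96 and 114 without siFLuc numbers 2 and 4, while the lower genes numbered 78, 48 and 78, and 59, 77 and 51, in the same order. With only the 6 libraries in the fit, 26 genes were higher and 24 lower. Of the called genes named below, EPHX1, NMD3, PRODH2, PDCD11, UNG, ENSG00000225200, EEF1A1P11, CYP51A1, TRIM16L, TRMT112, PFKM, SHISA5, NUS1, CDH1, DDX18, FBL, RPS21, RPL7, CBR1, CEBPB, PDIA6, NDUFA1, RPL12, KRT7 and AKR1B10 did not pass in that fit (adjusted p 0.0508 to 0.176). Genes picked after their values were seen (DHX40, CD74, FGL1, AGR2, HNF4A, CEBPA, FOXA3 and LRG1) were not examined in that fit. Nor were they examined in the fits without 1 library. The same holds for YWHAZ and for the pseudogenes outside the 10 largest falls. All calls are from the fit without a replicate block unless another is named.

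**Figure D1:**
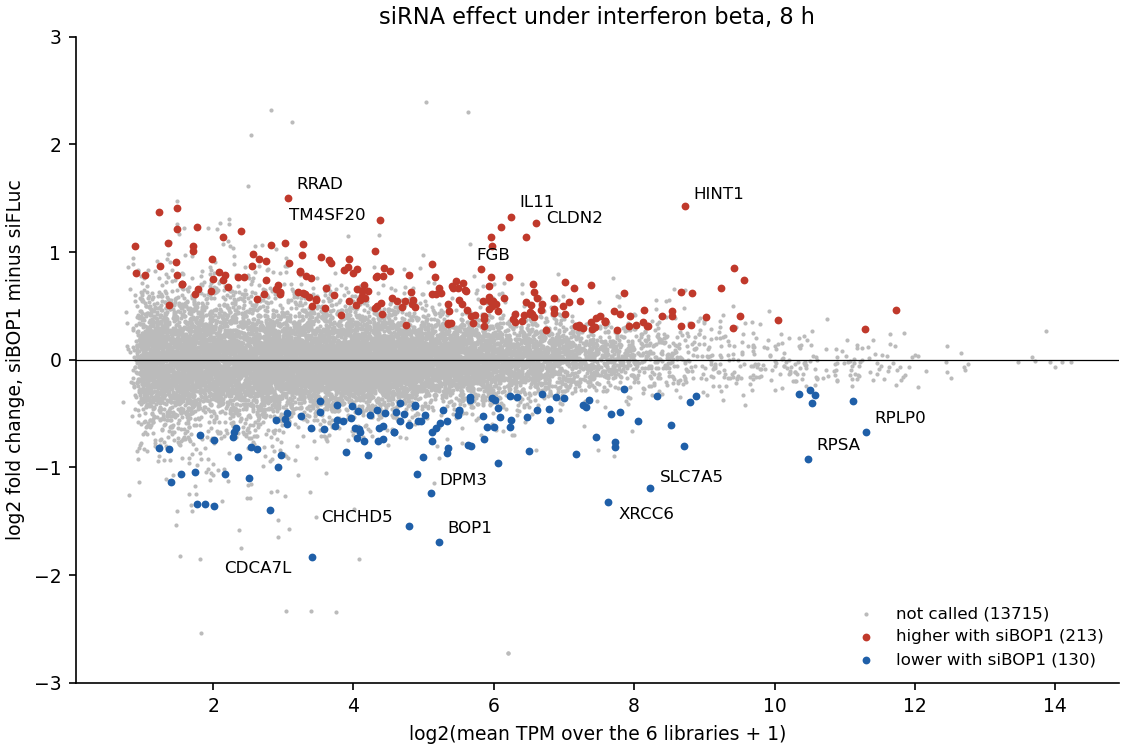
Each point is 1 of the 14058 genes, with its mean level over the 6 libraries on the horizontal axis and its log2 fold change (siBOP1 minus siFLuc) on the vertical axis; 213 genes called higher are red, 130 called lower are blue, and 5 genes beyond a change of 3, none of them called, are not shown. Called genes are spread over the whole range of levels, and HINT1, XRCC6, SLC7A5, RPSA and RPLP0 are changed genes with high levels.

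Many of the lower genes shared a 7-base word in their 3′ untranslated regions (UTRs). The word had been found earlier in the mock libraries of this series, so its share here is a description. GCCAGTT occurred in the longest annotated 3′ UTR of 60 of the 113 lower genes that have one (53.1%, 95% Wilson interval 43.9 to 62.0), against 10 of 207 higher genes (4.83%, 2.64 to 8.66) and 1400 of all 11808 tested genes with a 3′ UTR (11.9%). Sites of lower genes described here are shown because they carry this feature. Each is read 5′ to 3′ on the transcript's strand from GRCh38 with GENCODE 29 exons, with the 7-base word in capitals and 8 bases on each side; all lie in a 3′ UTR exon.
CDCA7L, chr7:21902060-21902082, minus strand: aaatatctGCCAGTTattaaaaa
XRCC6, chr22:41663870-41663892, plus strand: tgtcctcaGCCAGTTaaaatgtg
DPM3, chr1:155139893-155139915, minus strand: attaaagaGCCAGTTtattttct
SLC7A5, chr16:87832916-87832938, minus strand: gcgcagagGCCAGTTaaagtaga
UNG, first site, chr12:109110008-109110030, plus strand: acgtatttGCCAGTTacgaagtt
UNG, other site, chr12:109110414-109110436, plus strand: cagtctctGCCAGTTccactgcc
DHX40, chr17:59607225-59607247, plus strand: tctactttGCCAGTTatttcaga
PDCD11, chr10:103446234-103446256, plus strand: ttgttgaaGCCAGTTcttttttg
ATP5F1C, chr10:7807669-7807691, plus strand: aaaattcaGCCAGTTgattttgt
RPLP0, chr12:120196736-120196758, minus strand: ccaacttaGCCAGTTttatttgc

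The flanking bases differed from gene to gene, and the shared part was the word itself. In XRCC6, DPM3, SLC7A5, ATP5F1C and RPLP0 it began 63, 55, 40, 49 and 23 bases into the 3′ UTR, and over all 65 sites in the 60 genes the median start was 431 bases, with 12 sites in the first 100 bases. BOP1, CHCHD5 and RPSA had no copy in the UTR examined. DHX40, an RNA helicase picked here after its values were seen, was at 23.9, 22.4 and 17.6 TPM with siBOP1 and at 42.2, 41.5 and 37.7 TPM with siFLuc (log2 fold change -0.90).

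Among the called genes named here, the fall was deepest for CDCA7L, which encodes a nuclear protein related to CDCA7 (ENSG00000164649.20, chromosome 7, 21900900 to 21946084, minus strand). It was at 4.26, 3.54 and 3.06 TPM with siBOP1 and at 12.2, 14.4 and 20.2 TPM with siFLuc. The siBOP1 mean was 23.2% of the control, a change of -1.83 on the log2 scale (SE 0.19, adjusted p 1.27e-05). CHCHD5, a small protein of the mitochondrial intermembrane space (chromosome 2, 112584240 to 112589275, plus strand), was at 14.6, 15.3 and 9.88 TPM against 40.4, 35.4 and 44.3 TPM. Its log2 fold change was -1.54 (adjusted p 1.06e-05), and the siBOP1 library numbered 4 had the lowest value for both genes.

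Genes of DNA repair were among the largest falls. XRCC6 encodes Ku70, which with Ku80 (XRCC5) holds DNA ends for non-homologous end joining. XRCC6 (chromosome 22, 41621119 to 41664048, plus strand) was at 128, 99.1 and 111 TPM with siBOP1 and at 297, 276 and 273 TPM with siFLuc, which gave a log2 fold change of -1.32 with an SE of 0.12 (adjusted p 4.50e-06). XRCC5 was at 155 to 162 TPM and 159 to 175 TPM, with a log2 fold change of -0.07 that did not pass the test, so the 2 subunits of the Ku dimer moved unequally at the RNA level. UNG, the uracil-DNA glycosylase that starts base excision repair, was at 20.7, 14.4 and 19.8 TPM against 38.9, 31.3 and 48.1 TPM (log2 fold change -1.06, adjusted p 0.00506). Of 23 tested genes of end joining and excision repair, these 2 were called lower (8.70%, against 0.925% of all genes), and the median of the list was -0.12. This list and those below were written with earlier results of these data known. A high share of called members can follow from that choice, so such shares are descriptions and not tests of enrichment.

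Falls of similar size were seen in 2 genes of amino acid transport and protein glycosylation. SLC7A5, the light chain of the large neutral amino acid transporter LAT1 (chromosome 16, 87830023 to 87869488, minus strand), was at 224, 188 and 136 TPM with siBOP1 and at 476, 364 and 398 TPM with siFLuc, a change of -1.19 on the log2 scale (SE 0.17, adjusted p 0.000520). DPM3, a subunit of the enzyme that makes dolichol-phosphate mannose (chromosome 1, 155139891 to 155140595, minus strand), was at 20.8, 14.8 and 23.3 TPM against 50.2, 43.9 and 46.7 TPM, a change of -1.24 on the log2 scale (SE 0.20, adjusted p 0.00159). Neither gene's groups overlapped. DPM3 and NUS1, a subunit of the dolichol-making cis-prenyltransferase with a log2 fold change of -0.51, were the 2 members called lower among 40 genes of dolichol and GPI anchor synthesis (5.00%, against 0.925% of all genes), whose median was 0.10. NUS1 lost the call without siBOP1 number 2, siFLuc number 1 or siFLuc number 4 (adjusted p 0.0833, 0.0584 and 0.0503).

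The rest of the 10 largest falls were 3 processed pseudogenes, which are copies of spliced transcripts. YWHAZP3 was at 3.884, 2.752 and 2.002 TPM with siBOP1 and at 10.6, 7.73 and 8.93 TPM with siFLuc (log2 fold change -1.40, adjusted p 0.00446). ENSG00000225200 and EEF1A1P11 had changes of -1.10 and -1.06. EEF1A1P11 lost the call when any 1 of the 6 libraries was left out (adjusted p up to 0.178), and ENSG00000225200 lost it without siBOP1 number 2 or 4 or siFLuc number 1 or 4 (adjusted p 0.0643 to 0.0817). Pseudogenes made up 14 of the 130 lower genes (10.8%), 1 of the 213 higher genes (0.469%) and 6.61% of all genes tested. Several stood beside a lower parent gene: XRCC6P2 (-1.36) beside XRCC6, YWHAZP3 and YWHAZP10 (-1.06) beside YWHAZ (-0.80), RPSAP54 (-0.88) beside RPSA, and RPLP0P6 (-0.84) beside RPLP0. These pairs were picked after their values were seen. PFN1P1 (-1.34), HNRNPA1P4 (-1.34), RPL13AP25 (-1.04) and EIF1AXP1 (-0.82) were also lower, as was EEF1A1P11. PFN1, HNRNPA1, RPL13A, EIF1AX and EEF1A1, after which they are named, were not among the genes called lower. How reads shared by a gene and its copy were assigned is not given in the sources used here. In the pairs with a lower parent, a pseudogene's fall therefore cannot be told apart from its parent's.

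RRAD had the largest rise among called genes with non-overlapping groups and a mean of at least 5 TPM in the higher group. It encodes a small GTPase of the RGK family, proteins known to inhibit voltage-gated calcium channels. RRAD (ENSG00000166592.12, chromosome 16, 66921679 to 66925644, minus strand) was at 11.3, 10.8 and 12.2 TPM with siBOP1 and at 3.42, 3.17 and 3.51 TPM with siFLuc. The ratio of means was 3.39, and the log2 fold change was 1.51 (SE 0.16, adjusted p 1.27e-05). GEM, the only other gene of that family tested, was at 2.07 to 3.97 TPM over the 6 libraries, with overlapping groups and a log2 fold change of 0.18 that did not pass the test.

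HINT1 was the most abundant of the 10 largest rises. HINT1, a histidine triad hydrolase of nucleoside phosphoramidates (ENSG00000169567.12, chromosome 5, 131159027 to 131171735, minus strand), was at 540, 560 and 754 TPM with siBOP1 and at 230, 223 and 224 TPM with siFLuc. The siFLuc values were close together, and the siBOP1 library numbered 4 was the highest. On the log2 scale the change was 1.43 (SE 0.18, adjusted p 0.000119).

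The 3 fibrinogen chains, which are secreted together as a clotting protein and are known as acute phase products of the liver, rose together. FGA (chromosome 4, 154583126 to 154590766, minus strand) was at 86.4, 92.2 and 108 TPM with siBOP1 and at 45.9, 37.0 and 37.8 TPM with siFLuc, a change of 1.23 on the log2 scale (SE 0.20, adjusted p 0.00131). FGB (chromosome 4, 154562956 to 154571086, plus strand) was at 102, 117 and 143 TPM against 52.0, 52.2 and 56.6 TPM, a change of 1.14 on the log2 scale (SE 0.15, adjusted p 0.000167). FGG was at 76.9, 83.4 and 90.6 TPM against 37.9, 36.5 and 45.0 TPM, a change of 1.06 on the log2 scale (SE 0.18, adjusted p 0.00210). None of the 3 overlapped between groups, and they kept the call in all settings tried. They were the 3 members called higher among 19 tested acute phase genes (15.8%, against 1.52% of all genes). The list's median was 0.28, and 18 of its 19 members had a change above 0.

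IL11, a cytokine of the interleukin 6 family, also rose. It was at 114, 109 and 98.8 TPM with siBOP1 and at 53, 43.9 and 32.1 TPM with siFLuc, a change of 1.32 on the log2 scale (SE 0.16, adjusted p 4.66e-05). It was the only one of 19 tested chemokine and cytokine genes to be called (5.26% higher, against 1.52% of all genes), and that list's median was 0.05. BIRC3, an inhibitor of apoptosis in the same list, was at 147 to 154 TPM against 81.6 to 93.2 TPM, but its log2 fold change of 0.79 had an SE of 0.35 and did not pass (adjusted p 0.283).

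The other 5 of the 10 largest rises were TM4SF20, CLDN2, TTC39A, PRODH2 and SAMD11. TM4SF20, a membrane protein with 4 transmembrane segments, was at 24.2, 23.7 and 38.4 TPM with siBOP1 and at 10.0, 9.68 and 12.9 TPM with siFLuc (log2 fold change 1.30, adjusted p 0.000506). CLDN2, a claudin that forms pores in tight junctions, was at 133, 136 and 138 TPM against 63.6, 52.6 and 51.1 TPM (log2 fold change 1.27, adjusted p 0.0238). SAMD11 was at 87.7, 91.7 and 75.1 TPM against 40.5, 35.6 and 37.8 TPM (log2 fold change 1.14, adjusted p 0.00245). The values of these 3 genes did not overlap between groups, and the siBOP1 library numbered 4 was highest for TM4SF20 and lowest for SAMD11. TTC39A and PRODH2, an enzyme of hydroxyproline breakdown, had lower levels, of at most 6.59 and 6.37 TPM, and log2 fold changes of 1.19 and 1.14. CLDN2 lost the call without any 1 library other than siFLuc number 1 (adjusted p 0.0674 to 0.0943), and PRODH2 lost it without any 1 of the 6 (0.0552 to 0.148).

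**Figure D2:**
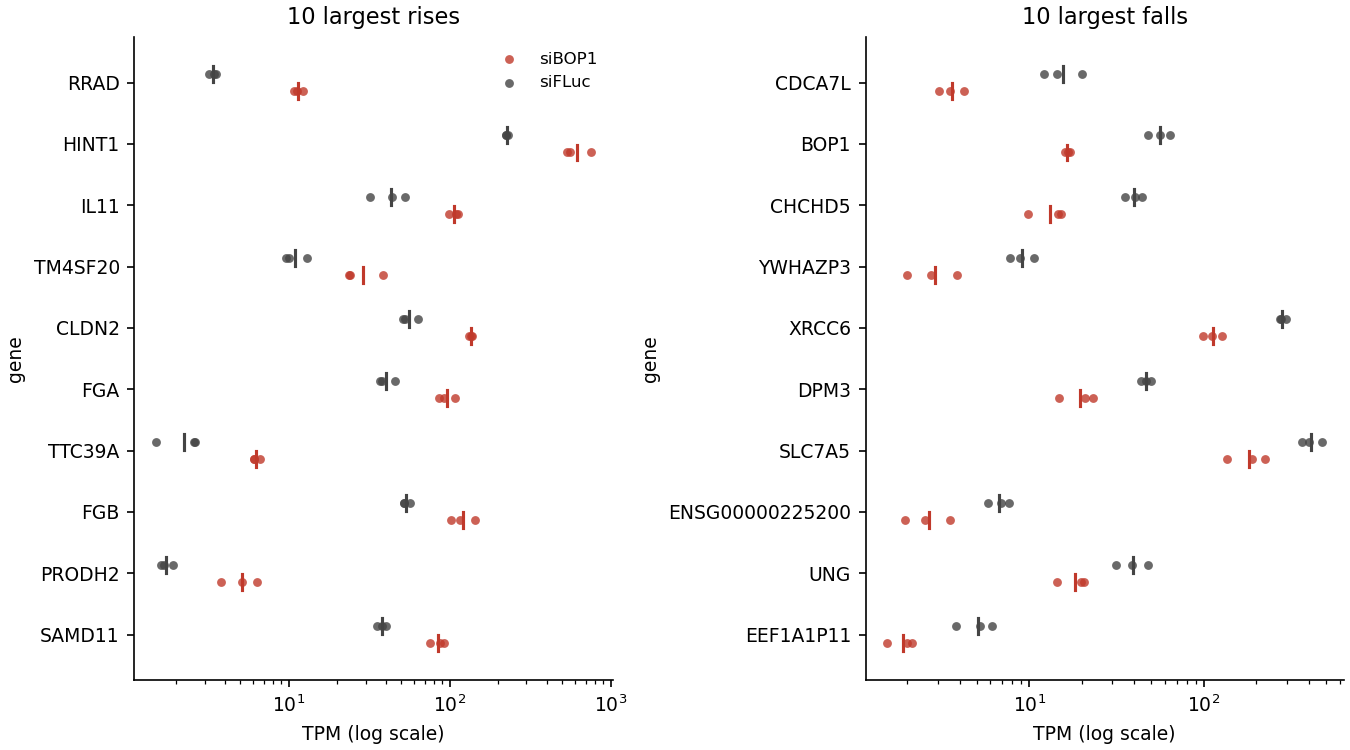
TPM in each library on a log axis for the 10 largest rises (left) and the 10 largest falls (right), red points for the 3 siBOP1 libraries, grey for the 3 siFLuc libraries, and bars for group means. The groups do not overlap for any of the 20 genes, which the rule for naming them required, and HINT1 has the tightest siFLuc values, from 223 to 230 TPM.

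Assembly factors of the ribosome, the machinery that BOP1 belongs to, had median changes below 0, and few passed the test. Of 59 tested genes listed as large subunit assembly factors, other than BOP1, 3 were called lower and none higher (5.08% lower, against 0.925% of all genes). The list's median was -0.18, and 53 members were below 0. The called members were NMD3, the export adaptor of the large subunit (log2 fold change -0.59, adjusted p 0.0357), DDX18, a nucleolar helicase (-0.47, adjusted p 0.0280), and FBL, the methyltransferase fibrillarin (-0.33, adjusted p 0.0160). The placing of FBL in this list, and not in that of the small subunit, was a choice. FBL was at 416, 434 and 404 TPM with siBOP1 and at 528, 527 and 526 TPM with siFLuc, and the siBOP1 mean was 79.3% of the control. Leaving out a library ended the call of NMD3 for each of the 6 (adjusted p 0.0682 to 0.146), of DDX18 for each except siBOP1 number 1 (0.0652 to 0.113), and of FBL for siBOP1 numbers 1 and 4 and siFLuc numbers 2 and 4 (0.0549 to 0.0601).

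Of 58 small subunit assembly factors, 2 were called lower (3.45%, against 0.925% of all genes), with a median of -0.19 and 50 members below 0. PDCD11, the homologue of yeast Rrp5, was at 11.3, 10.5 and 14.2 TPM against 22.8, 19.7 and 26.2 TPM (log2 fold change -0.88, adjusted p 0.0223), and it lost the call without siBOP1 number 1 or 2 or siFLuc number 1 or 4 (adjusted p 0.0585 to 0.110). TRMT112, a cofactor of several methyltransferases, was at 212, 208 and 221 TPM against 289, 300 and 366 TPM (-0.57, adjusted p 0.00784), and it lost the call without siFLuc number 4 (0.0588). None of 18 RNA polymerase I genes was called, while 17 of them were below 0 and the median was -0.22. POLR1G had the largest change of these, -0.61 (adjusted p 0.0825). Between libraries of the same number, the 3 medians were -0.16, -0.23 and -0.18 for large subunit factors, -0.19, -0.22 and -0.19 for small subunit factors and -0.14, -0.17 and -0.26 for RNA polymerase I, for numbers 1, 2 and 4. These compare with -0.02, 0.02 and -0.03 over all genes.

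Few ribosomal protein genes passed the test. RPSA, the small subunit protein that also serves as the laminin receptor precursor, was at 987, 1056 and 903 TPM with siBOP1 and at 1783, 1900 and 1879 TPM with siFLuc, a change of -0.92 on the log2 scale (SE 0.09, adjusted p 1.06e-05). RPLP0, a protein of the large subunit stalk, was at 2032, 2095 and 1747 TPM against 3065, 3296 and 2950 TPM, a change of -0.67 on the log2 scale (SE 0.09, adjusted p 0.000240). Both were clear of the control range in every library and kept the call in all settings tried. RPS21 (-0.41), RPL12 (-0.38) and RPL7 (-0.31) were also called lower. With median-of-ratios rescaling these did not pass (adjusted p 0.130, 0.176 and 0.135). Each also lost the call when single libraries were left out: RPL7 for each of the 6 (0.0515 to 0.121), RPL12 for each but siFLuc number 4 (0.0681 to 0.171), and RPS21 for siBOP1 numbers 1 and 2 and siFLuc numbers 2 and 4 (0.0637 to 0.0810). In all, 3 of 47 large subunit proteins (6.38%) and 2 of 33 small subunit proteins (6.06%) were called lower, against 0.925% of all genes, and none higher. The medians were -0.07 and -0.13, with 41 and 29 members below 0. The median of the small subunit proteins was -0.10, -0.26 and 0.05 for column numbers 1, 2 and 4, so it differed in sign for number 4. How reads of these genes' many pseudogenes were assigned was not tested.

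Translation factors had a median of -0.16 over 48 genes, 42 of them below 0. EIF4G2, an eIF4G relative used in cap-independent initiation, was the only one called (2.08% lower, against 0.925% of all genes). It was at 313, 290 and 276 TPM with siBOP1 and at 446, 430 and 461 TPM with siFLuc, a change of -0.61 on the log2 scale (SE 0.09, adjusted p 0.000362). Among 77 nuclear genes of oxidative phosphorylation, ATP5F1C, the gamma subunit of ATP synthase, was called lower (159, 142 and 157 TPM against 228, 297 and 285 TPM, log2 fold change -0.81, adjusted p 0.000105). NDUFA1, a complex I subunit, was called higher (log2 fold change 0.63, adjusted p 0.0206). Its siBOP1 values were 416, 416 and 662 TPM against 307 to 325 TPM, and it lost the call without siBOP1 number 4 (adjusted p 0.0879) or any siFLuc library (0.0572 to 0.0766). Of that list 1.3% was called higher and 1.3% lower, against 1.52% and 0.925% of all genes, and its median was 0.05. None of the 13 mitochondrially encoded genes passed.

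**Figure D3:**
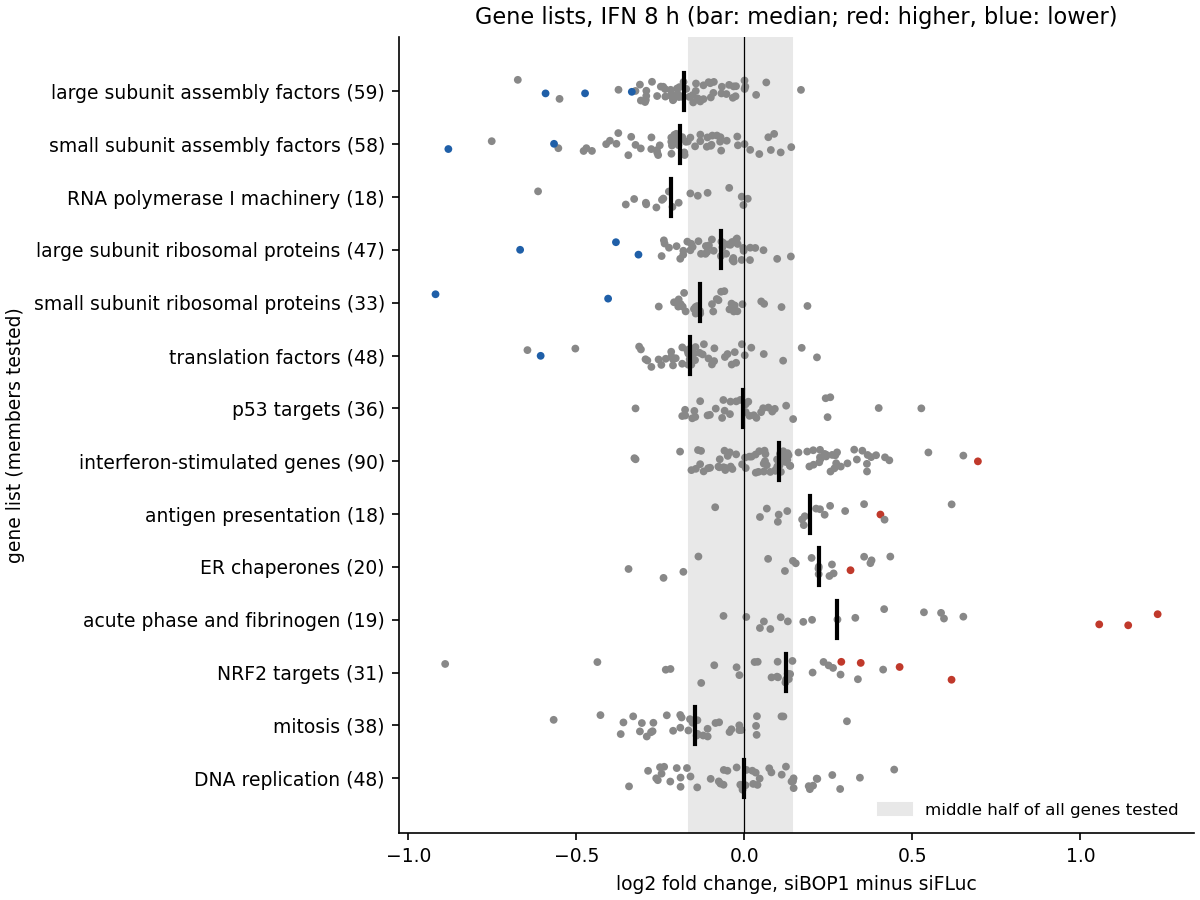
Log2 fold changes (siBOP1 minus siFLuc) of the members of 14 gene lists, 1 point a gene, with the list's median as a black bar, genes called higher in red and called lower in blue; the grey band is the interquartile range of all 14058 genes. Medians of the assembly factor lists and RNA polymerase I are near -0.2, those of antigen presentation, ER chaperones and acute phase genes are 0.20 to 0.28, and most members in each list are grey.

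The interferon-stimulated genes IFIT1, ISG15, MX1, OAS1 and IRF9 did not pass the test for an siRNA effect. IFIT1 was at 1384, 1436 and 1357 TPM with siBOP1 and at 1199, 1305 and 1123 TPM with siFLuc, a log2 fold change of 0.21 with a standard error of 0.34. In mock cells at 8 h its means were 1.77 ± 0.326 and 2.13 ± 1.58 TPM (SD, n = 3 each), so it was high in both IFN groups. ISG15 was at 1895, 2013 and 1893 TPM against 1624, 1523 and 1331 TPM (0.38, SE 0.24). MX1 had a change of -0.04 (SE 0.19), OAS1 of 0.11 (SE 0.18) and IRF9 of 0.13 (SE 0.21), all with overlapping groups. Without siFLuc number 1 the change of MX1 was 0.04. For IFIT1 and ISG15 every siBOP1 value was above every siFLuc value, but the standard errors, which rest on all 24 libraries, were large against the differences. Among 90 interferon-stimulated genes, the groups did not overlap for 15 in the upward and 3 in the downward direction. Over all genes this held for 10.3% and 10.5%. Of the 90, 66 were above 0, the median was 0.10, and 1 was called higher (1.11%, against 1.52% of all genes). That gene was SHISA5, an endoplasmic reticulum protein, at 218, 232 and 165 TPM against 144, 121 and 112 TPM (log2 fold change 0.70, adjusted p 0.000986). None of 19 receptor and JAK-STAT genes was called, and their median was -0.04.

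Antigen presentation genes had a median of 0.20, with 17 of 18 members above 0. HLA-B had values of 531 to 558 TPM against 314 to 394 TPM and a change of 0.62, and did not pass (adjusted p 0.137). Reads of HLA genes can be shared between the family's members, and their assignment was not tested. Chosen after its values were seen, CD74, the invariant chain of MHC class II, was at 3.59, 2.93 and 3.72 TPM with siBOP1 and at 0.764, 0.944 and 1.75 TPM with siFLuc (log2 fold change 1.06, adjusted p 0.0300).

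None of the 36 tested genes in the p53 target list passed the test without a replicate block. The list is a selection, and RRAD and SHISA5 were counted in other lists and not in this one. The group was examined because block of large subunit maturation is known to stabilise p53. CDKN1A was at 59.4 to 65.3 TPM against 44.9 to 59.6 TPM (log2 fold change 0.25, SE 0.22), and MDM2 at 36.3 to 45.2 TPM against 40.3 to 47.6 TPM (-0.15, SE 0.45), with overlapping groups in both. FAS, the death receptor, was at 45.8 to 48.9 TPM against 32.0 to 33.2 TPM (0.53, SE 0.16, adjusted p 0.0945). The list's median was -0.0042 and 18 members lay on each side of 0. Of these targets, BBC3 had the next largest change, 0.40 with an SE of 0.45, and did not pass (adjusted p 0.782). It was at 29.3 to 33.2 TPM with siBOP1 and at 21.7 to 24.5 TPM with siFLuc, so its groups did not overlap. That SE rests on all 24 libraries and not on these samples alone. In the list, the groups did not overlap for 2 members in the upward direction, FAS and BBC3, and for 0 in the downward direction.

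NRF2 targets, the detoxifying enzymes and their relatives, held 4 genes called higher among 31 (12.9%, against 1.52% of all genes), with a median of 0.12. EPHX1, a microsomal epoxide hydrolase, was at 283, 284 and 267 TPM against 204, 169 and 172 TPM (log2 fold change 0.62, adjusted p 0.00352). TRIM16L had a change of 0.46, CBR1, a carbonyl reductase, of 0.35, and AKR1B10, an aldo-keto reductase, of 0.29. The member with the largest change lay on the other side: HMOX1, heme oxygenase 1, was at 175, 174 and 98.7 TPM against 303, 266 and 239 TPM, a change of -0.89 that did not pass (adjusted p 0.0642). AKR1B10 lost the call when any 1 of the 6 libraries was left out (adjusted p 0.0742 to 0.170) and under median-of-ratios rescaling (0.0761). CBR1 lost it without siBOP1 number 2 or 4 or siFLuc number 1 or 2 (0.0626 to 0.0880) and under both rescalings (0.0746 and 0.0539), and TRIM16L without siFLuc number 4 (0.0633). ER chaperones had a median of 0.22 with 16 of 20 above 0. PDIA6, a disulfide isomerase, was the only one called (5% higher, against 1.52% of all genes), with a change of 0.32 (adjusted p 0.0326). It lost the call without any 1 library other than siFLuc number 1 (0.0628 to 0.129).

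Other lists held few called genes. CA12, a membrane carbonic anhydrase, was at 748, 783 and 685 TPM against 507, 466 and 428 TPM (log2 fold change 0.66, adjusted p 0.00131), and PFKM, muscle phosphofructokinase, was called lower at -0.72 (adjusted p 0.0165), out of 32 glycolysis and hypoxia genes. Of that list 3.12% was called higher and 3.12% lower, against 1.52% and 0.925% of all genes. PFKM lost the call without siBOP1 number 2 or 4 or siFLuc number 4 (0.0786, 0.0513 and 0.0986). Of 25 cholesterol synthesis genes, CYP51A1 was called lower (4% of the list, against 0.925% of all genes), with a change of -0.53 (adjusted p 0.0417). It lost the call without any 1 of the 6 libraries (0.0766 to 0.170), while the list's median was 0.11. Of 29 genes of the integrated stress response, SLC7A5 was called lower and CEBPB, a transcription factor, higher (0.47, adjusted p 0.0456). This was 3.45% of the list in each direction, against 0.925% of all genes lower and 1.52% higher. CEBPB lost the call without any 1 library other than siFLuc number 1 (0.0674 to 0.211). None of 48 DNA replication genes, 38 mitosis genes or 23 EGFR ligand and ERK feedback genes was called, and the medians were -0.0007, -0.15 and 0.09. Of the 5 epithelial markers, CDH1, or E-cadherin, was called higher (0.54, adjusted p 0.0274) and KRT7 lower (-0.33, adjusted p 0.0223), 20% each way, against 1.52% and 0.925% of all genes. CDH1 lost the call without siBOP1 number 1 or 2 or siFLuc number 2 or 4 (0.0914 to 0.129), and KRT7 without siBOP1 number 1 or 2 or siFLuc number 1 or 2 (0.0578 to 0.120).

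A few further called genes were picked after their values were seen, from no list, and stand for no group. FGL1, a fibrinogen-like protein, was at 109, 117 and 123 TPM with siBOP1 and at 68.8, 81.3 and 63.4 TPM with siFLuc (log2 fold change 0.70, adjusted p 0.0128). AGR2, a secretory pathway disulfide isomerase, was at 800, 1047 and 987 TPM against 500, 687 and 516 TPM (0.74, adjusted p 0.0166). The transcription factors HNF4A, CEBPA and FOXA3, which act in liver and gut epithelium, had means of 8.32, 4.40 and 3.23 TPM against 4.84, 2.05 and 1.68 TPM, with changes of 0.69, 0.82 and 0.66 (adjusted p 0.0331, 0.00265 and 0.0280).

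The siRNA effect was then set beside that in mock-treated cells at 8 h, which came from separate libraries but from the same fit. That fit gives a gene the same SE in both comparisons, from all 24 libraries. A gene with a small SE is thus more readily called in both, and the overlap of calls is partly built in. Of the 213 higher genes, 209 had a change above 0 in mock cells (98.1%, against 70.4% of all genes with the same sign in both comparisons) and 138 were called higher there, where 263 of all genes were called higher (1.87%). Of the 130 lower genes, 126 had a change below 0 (96.9%) and 68 were called lower, against 109 of all genes (0.775%). In mock cells 372 genes were called in all (2.65%). None of the 343 was called in the opposite direction. Across the 14058 genes, which are not independent replicates, Pearson r between the changes was 0.52 and Spearman rho 0.57. The median changes of the called genes in mock cells were 0.51 and -0.50. 

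No gene passed the test of the siRNA by IFN interaction at 8 h with limma (lowest adjusted p 0.9999), and 261 of 14058 genes had an unadjusted p under 0.05. That is less than a share of 0.05 of the genes, which would be reached if no gene differed and the p-values were evenly spread. The fit was thus cautious for this contrast, and its lack of calls cannot show that the effects were equal. The median standard error of the interaction was 0.25, against 0.18 for the siRNA effect. Some genes with large changes under IFN had smaller ones in mock cells without passing that test. RRAD changed by 1.51 under IFN and by 0.79 in mock cells (interaction unadjusted p 0.00403), and CDCA7L by -1.83 and -1.20 (unadjusted p 0.0291). YWHAZP3 changed by -1.40 and -0.31 (unadjusted p 0.00675), and ENSG00000225200 by -1.10 and 0.32 (unadjusted p 0.000510). LRG1, a secreted glycoprotein picked after its values were seen, changed by 1.23 and 0.15 (unadjusted p 0.000495). The changes of XRCC6 (-1.42), CHCHD5 (-1.79), HINT1 (1.35) and RPSA (-0.98) in mock cells were close to those under IFN.

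**Figure D4:**
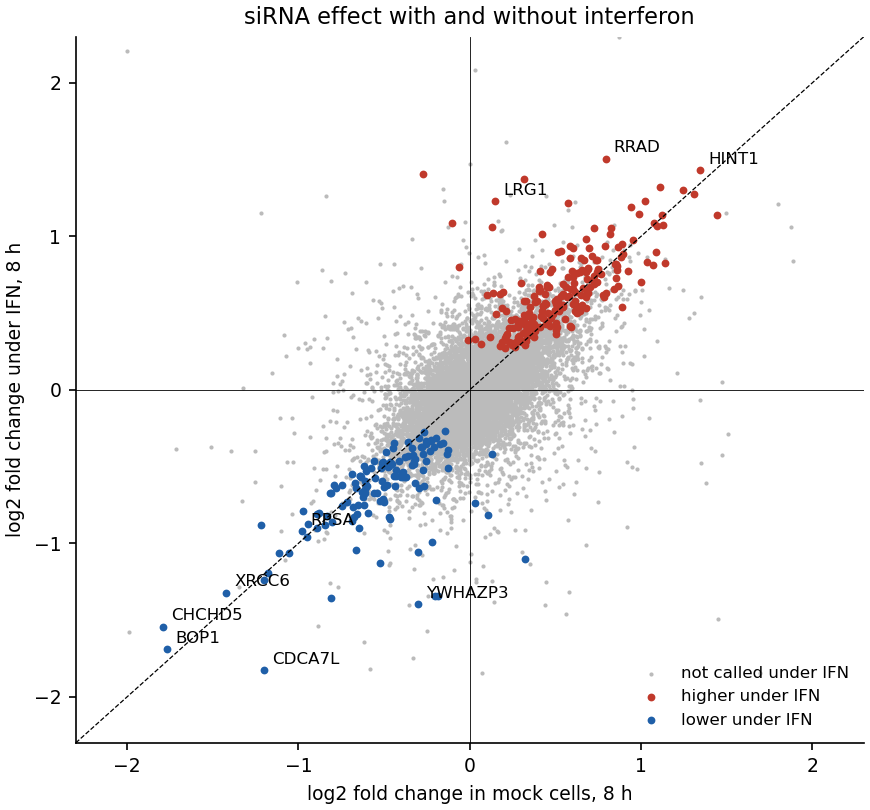
Log2 fold change (siBOP1 minus siFLuc) in mock cells at 8 h on the horizontal axis and under IFN at 8 h on the vertical axis, 1 point a gene, with genes called under IFN in red (213) and blue (130) and a dashed line of equal change; 16 genes beyond the axes are not shown. Called genes lie mostly in the lower left and upper right, and RRAD, LRG1, CDCA7L and YWHAZP3 lie off the line of equal change.

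The effect after 12 h of IFN again came from separate libraries but from the same fit, with the same SE for a gene. All 213 higher genes had a change above 0 there. Of them, 65 were called higher, out of 73 genes called higher at 12 h (0.519% of all genes). Of the 130 lower genes, 126 had a change below 0 and 40 were called lower, out of 47 called lower at 12 h (0.334% of all genes). The same sign was seen for 71.6% of all genes, with a Pearson r of 0.51 and a Spearman rho of 0.55 across them. At 12 h 120 genes were called (0.854%), and the median changes of the genes called at 8 h were 0.42 and -0.42. No gene passed the siRNA by time interaction under IFN with limma (lowest adjusted p 1, 212 genes with an unadjusted p under 0.05). These genes too were less than a share of 0.05 of all genes, so equal effects at both times cannot be read from it. BOP1 changed by -1.92 at 12 h, XRCC6 by -1.13, CHCHD5 by -1.43, FGB by 1.18 and RRAD by 0.97.

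The 7-base word GCCAGTT was examined further because it was already known to mark lower genes in the mock libraries of this series, so its presence here is a description. Among all 16384 words of 7 bases, it ranked first by the difference in share between lower genes (53.1%) and other genes (11.5%), 41.6 percentage points. The next were AGCCAGT and TGCCAGT, which overlap it, with 17.3 and 15.8 points. The reverse complement, AACTGGC, occurred in 6.19% of lower, 7.25% of higher and 9.59% of all tested genes with a 3′ UTR. Only the transcript strand was searched for each word. Lower genes also called lower in mock cells held it in 45 of 62 cases (72.6%, Wilson interval 60.4 to 82.1), and those called only under IFN in 15 of 51 (29.4%, 18.7 to 43.0). Genes called lower only in mock cells held it in 17 of 37 cases (45.9%, 31.0 to 61.6), an interval that overlaps both of the others. Because GCCAGTT was found in the mock libraries, a high share among genes called lower there follows in part from how it was chosen. The intervals take genes as the unit, and genes are not independent replicates. The word was found in the UTRs of RPS21, NUS1, EIF4G2, NMD3, TRMT112, DDX18 and CYP51A1 as well as in the genes printed above, and not in those of FBL, RPL7, RPL12, KRT7 or PFKM.

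Genes with the word had lower median changes. The median log2 fold change was 0.00 for 10408 genes without a copy, -0.08 for 1222 genes with 1 copy and -0.10 for 178 genes with 2 or more, and the share called lower was 0.509%, 4.50% and 2.81%. The difference between the medians of genes with and without the word was -0.08, -0.09 and -0.10 between libraries numbered 1, 2 and 4. In mock cells at 8 h it was -0.08, and under IFN at 12 h it was -0.07. The share called lower among genes with the word was highest in short 3′ UTRs: 19.3% for UTRs of 11 to 778 bases, 6.31% for 779 to 2120 bases and 1.86% for longer ones, against 0.575%, 0.442% and 0.506% without it. The siRNA sequences of the pool are not in the files used here, so whether the word pairs with the seed of a strand in the pool or of the control siRNA was not tested.

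**Figure D5:**
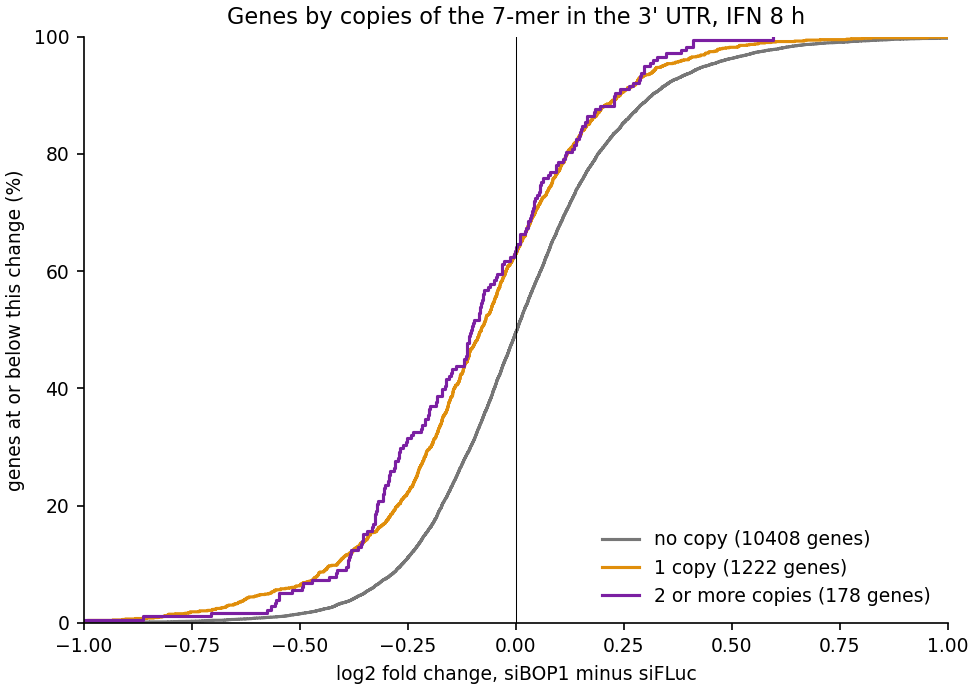
Cumulative share of genes by log2 fold change (siBOP1 minus siFLuc) for genes with no copy, 1 copy and 2 or more copies of the 7-base word in the longest 3′ UTR; the axis is limited to changes between -1 and 1. The curves of genes with a copy lie to the left of the curve without, and 63.0% and 63.5% of them are below 0, against 49.6%.

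Base composition was described because the series concerns codon use. For genes called higher, the median G or C share at the third codon position (GC3) was 71.8%, against 58.9% for lower genes and 58.3% for all tested genes with a coding sequence. Their median coding length was 1062 bases and their median 3′ UTR 780 bases, against 1407 and 1336 bases for all genes. From the lowest to the highest quartile of GC3, the share called higher was 0.540%, 1.49%, 1.65% and 3.31%, and the median change was -0.05, -0.02, 0.00 and 0.05. Spearman rho between GC3 and the change was 0.16 across 11849 genes, a weak relation, and 0.13 in mock cells. The libraries differed in this measure within groups. Each library's deviation from the mean of the 6 was taken for each gene, and the median over the highest quartile minus that over the lowest was 0.02, 0.11 and 0.01 for siBOP1 numbers 1, 2 and 4 and 0.00, -0.10 and -0.05 for the siFLuc numbers, so libraries numbered 2 stood farthest apart and the closest siBOP1 and siFLuc values nearly met. The part of library preparation in this relation was not tested.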

How the data were processed

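DNase-treated total RNA went into a stranded mRNA library kit, per the labels' protocols. The authors deposited 1 table of TPM for 60609 gene rows and 24 libraries. The aligner, quantifier, annotation and build are not given in the sources used here, and TPM keeps no read depth, so precision was taken from replicates alone. Columns numbered 4 match no replicate number of the labels and were used as members of their group. Symbols matched 60340 rows. Positions, coding sequences and 3′ UTRs came from GENCODE 29 on GRCh38, which held 58502 row IDs, 41747 with the same version.

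The siRNA effect was fitted to log2(TPM + 1) by limma (3.58.1, under R 4.3.3, eBayes with trend) with a mean for each of the 8 groups and all 24 libraries, leaving 16 residual degrees of freedom. P-values were Benjamini-Hochberg adjusted over the 14058 genes, with a threshold of 0.05. On simulated data the fit recovered 71% of 100 genes changed by 0.8 and 100% of 100 genes changed by 1.5 (log2). There were 6 false calls among the unchanged of the 14058 genes. The changed genes were drawn only from genes above a set level, so recovery of low genes was not tested. The simulated noise was independent between libraries, so a deviation shared by libraries of the same number was not part of it. These rates therefore need not hold for the real libraries. Named genes were BOP1, the 10 largest rises and falls among called genes with non-overlapping groups and a mean of at least 5 TPM in the higher group, called members and the 2 largest changes of each list, and a fixed set. Some genes these rules name are not reported here. Members, lists and the 7-base word were chosen with earlier results of these data known. Alternatives were a pseudocount of 0.1, other filters, 2 rescalings, no trend, fewer libraries, a replicate block, joined 3′ UTRs and leaving out each library.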

Additional observations from a re-analysis of the deposited data

How the results depend on the processing

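Calls depended on which libraries gave the spread. Fits that left out 1 library gave 87 to 179 higher and 48 to 78 lower genes, and the higher share of calls rose from 62.1% to 75.2% without siFLuc number 1. Fitting only the 6 libraries gave 26 and 24 calls, and the libraries numbered 1 and 2 alone gave 407 and 243. Quantile normalization raised the lower genes to 205. The small subunit assembly median was -0.17 with median-of-ratios rescaling, and the translation factor median -0.14 with it and -0.18 with quantile normalization. A replicate block over 24 libraries gave 827 and 632 calls and kept all 343, and a block over the 6 gave 244 and 154. Deviations of same-numbered libraries correlated at 0.16, 0.08 and 0.34 for numbers 1, 2 and 4. Numbers 1 and 2 were not shown to pair the libraries, and siBOP1 number 2 correlated best with siFLuc number 1 (0.18). Libraries numbered 4 correlated at -0.27 to -0.095 with those of the other group numbered 1 or 2. The libraries numbered 4 thus deviated partly alike, which the fit without a block does not model. With the block over 24 libraries, FAS, POLR1G, HMOX1, HLA-B and BIRC3, which did not pass without it, did so (adjusted p 0.00562, 0.0160, 0.000163, 0.0130 and 0.0117), and with the block over the 6 as well (0.0324, 0.0337, 0.0332, 0.0286 and 0.0161). With the block no interaction gene passed either (690 genes with an unadjusted p under 0.05 for IFN and 588 for time). Changes near 0 altered sign in some fits: MT-ND1 was 0.0023 with numbers 1 and 2 alone, and over the fits without 1 library the range was -0.1975 to 0.0771 for MT-ND1, -0.3746 to 0.0225 for MT-ND6, -0.2121 to 0.0050 for WDR12, -0.0915 to 0.0404 for MX1 and -0.1277 to 0.1607 for CD14. BOP1, XRCC6, CHCHD5, CDCA7L, DPM3, SLC7A5, RPSA, RPLP0, RRAD, HINT1, IL11 and the fibrinogen genes stayed past the threshold in every setting and leave-one-out fit. The share of lower genes with the 7-base word was 54.9% with all 3′ UTRs joined. Read depth is unknown, so its limit on low genes cannot be given.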
